A study of Mus musculus with 3 samples.

Results

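The metalloproteinase inhibitors of long bone were followed through the genes *Timp1*, *Timp2*, *Timp3*, *Timp4* and *Reck*, 5 of the 55422 features in the count tables, which were chosen by gene symbol. The data are 3 droplet single cell RNA-seq libraries from untreated male mice of the C57BL/6 strain aged 3 weeks. Metaphyseal replicates 1 and 2 hold wild-type cells of the femoral and tibial metaphysis after depletion of lineage-positive, CD45+ and CD117+ cells. The *Pdgfra-GFP* library holds GFP+ cells sorted from the same bones of *Pdgfra-H2B-GFP* heterozygous mice, in which a nuclear GFP reports the *Pdgfra* locus. For these cells the authors name metaphysis and epiphysis in their results and the metaphysis in their methods. The sort, and the region where it differs, can set which populations this library contains. The number of animals in a library is not given in the sources used here. The p-values rest on the scatter of population sums that remains after the library is fitted as a block, shared over all populations in one model. The sums come from 3 libraries, of which 2 are of the same kind, and this scatter may be technical.

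Metalloproteinases cut collagens, proteoglycans and cell surface proteins, and at the growth plate they open the cartilage for blood vessels and bone-forming cells. Tissue inhibitors of metalloproteinases (TIMPs) are small secreted proteins that block the active site of these enzymes. TIMP2 also takes part in the activation of pro-MMP2 at the cell surface by MMP14, TIMP3 binds to the extracellular matrix and inhibits ADAM and ADAMTS enzymes as well, and RECK is a membrane-anchored inhibitor. *Mmp9* (a gelatinase), *Mmp13* (a collagenase) and *Mmp14* (a membrane-anchored collagenase) were read in the same cells to set inhibitor against protease.

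After filtering, 2382, 2004 and 11242 cells remained in metaphyseal replicate 1, metaphyseal replicate 2 and the *Pdgfra-GFP* library, with median depths of 6257, 6426 and 5330 UMIs per cell. The metaphyseal libraries shared 0 barcodes with each other and 9 and 10 with the *Pdgfra-GFP* library. By chance over the barcode whitelist, 0.703, 3.94 and 3.32 were expected, and the difference was not tested. Cells were assigned to populations by the mean score of marker genes, none of which is a metalloproteinase or an inhibitor, and 96, 50 and 790 cells were left without a population. The populations are SC-like (septoclasts, SCs, the matrix-resorbing cells at the chondro-osseous border, gated on *Sstr2*, *Cd55*, *Otos*, *Egfr*, *Fbln1* and *Fabp5*), mpMSC-like and dpMSC-like (metaphyseal and diaphyseal mesenchymal stromal cells), OB-like (osteoblasts), chondrocyte-like, fibroblast-like, EC-like (endothelial cells), mural-like and 4 haematopoietic populations. SCs were rare, with 10, 17 and 239 cells, against 60, 53 and 1292 mpMSCs, 736, 682 and 4222 dpMSCs, 199, 181 and 1763 OBs, and 1119, 888 and 305 ECs. In SCs the 6 gate markers, all of them detected in each library, summed to 1593, 2422 and 3509 UMIs per 1000000 UMIs of the population (CPM), and the mpMSC markers to 977, 1164 and 805 CPM. Osteoclast markers summed to 0, 5.57 and 7.41 CPM in SCs, with 0, 1 and 2 of 6 genes detected, macrophage markers to 0, 0 and 4.76 CPM, and general haematopoietic markers to 19.0, 44.5 and 113 CPM. Of the 239 SCs in the *Pdgfra-GFP* library, 45 lay near the minimum score or near a population other than mpMSCs. Cells near the border between SCs and mpMSCs, where no margin was set, are not part of this count.

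Among the populations measured in all 3 libraries, *Timp1* was highest in OBs, *Timp3* in ECs and *Timp4* in dpMSCs, whereas *Timp2* was spread over stromal populations and *Reck*, also highest in dpMSCs, was low throughout. Over the 9 populations with at least 10 cells in every library, the highest mean level was 26.4 times the lowest for *Timp1*, 10.9 times for *Timp2*, 49.2 times for *Timp3*, 139 times for *Timp4* and 18.4 times for *Reck*. Levels below are CPM of a population within a library, in the order metaphyseal replicate 1, metaphyseal replicate 2 and *Pdgfra-GFP*, followed by the mean ± SD over libraries. The protocol counts one tag at the 3′ end of a molecule, so these levels do not scale with transcript length. Intervals are exact and cover counting error only.

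**Figure D1:**
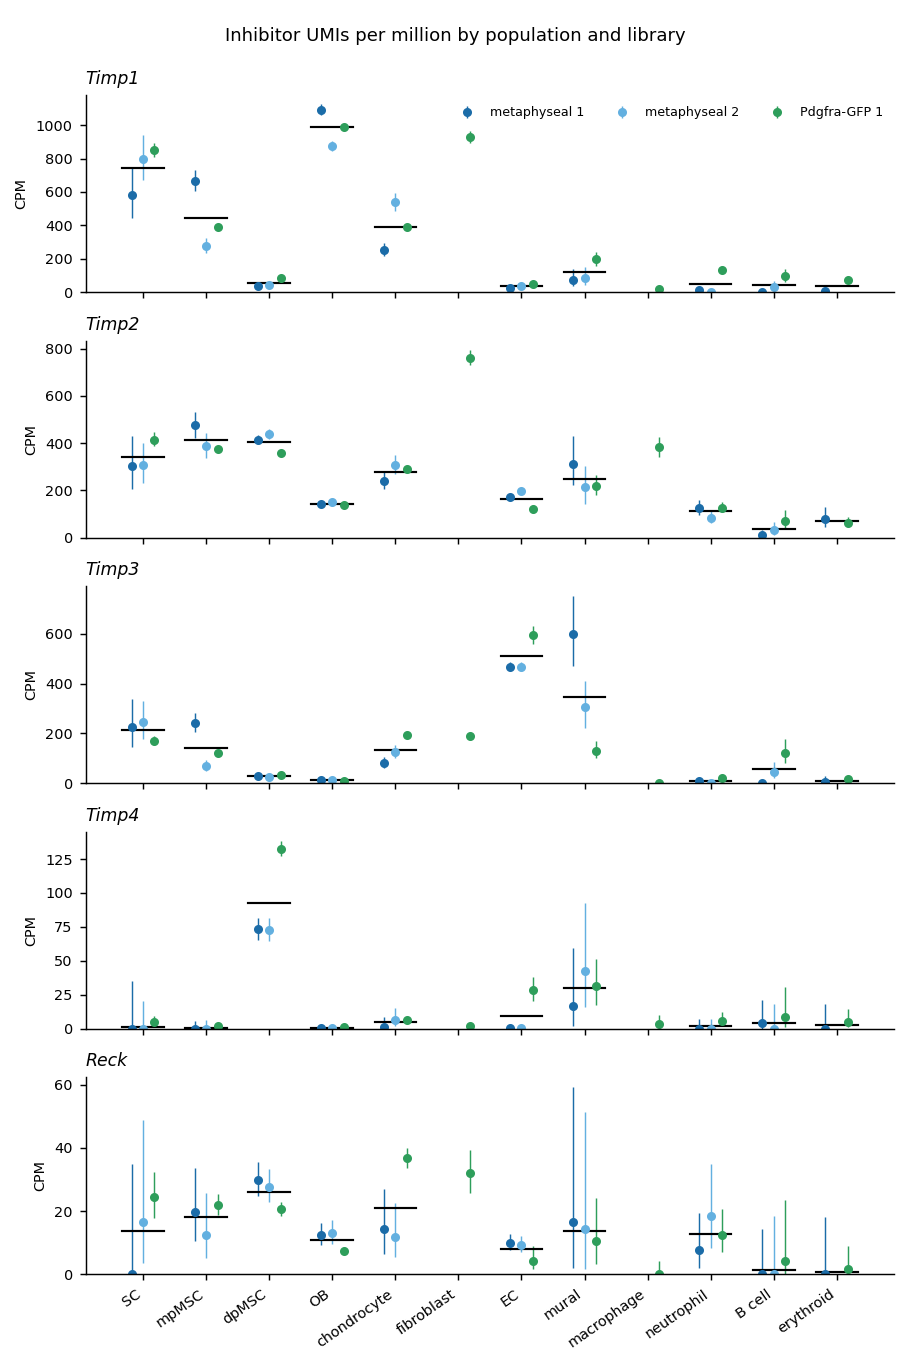
Level of each inhibitor (CPM, linear axis starting at 0) in 12 populations, with 1 point per library, exact 95% Poisson intervals of the counts as error bars and the mean over libraries as a black line where there is more than 1 library. *Timp1* points of OBs lie between 876 and 1092 CPM, *Timp3* points of ECs between 467 and 595 CPM, and *Timp4* points of dpMSCs between 72.5 and 133 CPM.

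The start regions of *Timp1* and *Timp4* are shown because these 2 genes differed in opposite directions between dpMSCs and mpMSCs, as described below. Both are the 250 bases before the RefSeq gene start in GRCm38.p6, read 5′ to 3′ on the strand of the gene, at chrX:20869916-20870165 (plus strand) and chr6:115252206-115252455 (minus strand).
*Timp1*: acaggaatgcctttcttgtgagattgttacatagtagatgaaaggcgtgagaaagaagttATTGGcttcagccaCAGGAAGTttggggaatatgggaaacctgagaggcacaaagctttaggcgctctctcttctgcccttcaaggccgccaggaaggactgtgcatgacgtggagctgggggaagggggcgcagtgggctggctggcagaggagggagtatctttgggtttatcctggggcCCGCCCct
*Timp4*: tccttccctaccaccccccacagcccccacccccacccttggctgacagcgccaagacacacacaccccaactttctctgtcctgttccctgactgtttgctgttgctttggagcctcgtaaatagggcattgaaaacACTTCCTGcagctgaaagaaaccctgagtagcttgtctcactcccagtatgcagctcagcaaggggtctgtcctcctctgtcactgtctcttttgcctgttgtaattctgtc
Capitals mark matches on either strand to the motifs searched, which were TGANTCA and the variant TGAGTAA for AP-1, the letters GGGCGG of the GC box, the letters TATAAA of the TATA box, the CCAAT box, the letters TGTGGT read by Runx factors and the letters CAGGAAGT read by Ets factors. The Ets letters CAGGAAGT occurred in both regions, on the strand of the gene in *Timp1* (first base at -176 from the start) and on the other strand in *Timp4*, and in 2.69% of 32851 regions of the same length. The GC box and the CCAAT box, each once on the other strand in *Timp1*, were found in 32.7% and 33.8% of regions. No marked match overlaps another. The *Timp4* region held 2 CpG dinucleotides and the *Timp1* region 6, which is also the median of all regions. A match describes letters and is not evidence of binding.

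*Timp1* encodes a secreted inhibitor of many MMPs. The gene lies on chromosome X (20870166-20874735, plus strand) overlapping *Syn1* on the other strand, with up to 6 exons annotated in a transcript. OBs held 1092, 876 and 991 CPM (986 ± 108), and SCs 579, 796 and 852 CPM (742 ± 144). All 3 OB libraries were above the SC value of the same library. In mpMSCs the level was 664, 275 and 392 CPM (444 ± 200), and in chondrocytes 252, 537 and 387 CPM (392 ± 143), so that these populations overlapped. Mural cells followed with 74.0, 85.3 and 195 CPM, and dpMSCs and ECs were at the bottom of the stroma, with 39.1, 40.7 and 83.0 CPM and with 26.0, 36.2 and 50.0 CPM. Fibroblasts, measured in the *Pdgfra-GFP* library alone, held 926 CPM. After every cell was thinned to 2000 UMIs, a *Timp1* UMI was seen in 79.9%, 68.5% and 73.5% of OBs and in 4.92%, 4.73% and 8.93% of ECs. B cells had 0%, 3.33% and 5.77% at the same number of UMIs, on 45, 30 and 52 cells. Before thinning the mean shares were 97.1% in OBs, whose median depth was 21712, 20994 and 11426 UMIs, 16.7% in ECs and 5.05% in B cells. Near-empty droplets held 248, 229 and 555 CPM of *Timp1*, above the levels in dpMSCs and ECs, and the part of this free RNA in the low levels was tested only by subtraction. Taking away 10% of the UMIs of each population as free RNA left a mean of 5.25 CPM in ECs and 22.0 CPM in dpMSCs.

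*Timp2*, the member whose level varied least between populations, lies on chromosome 11 (118301069-118355740, minus strand). The level was 475, 389 and 374 CPM in mpMSCs (412 ± 54.4), 413, 437 and 358 CPM in dpMSCs (403 ± 40.4) and 303, 306 and 415 CPM in SCs (342 ± 63.5). The ranges of these 3 stromal populations over libraries overlapped and their order differed between libraries. The counting intervals of SCs and dpMSCs were apart in metaphyseal replicate 2, where dpMSCs were higher, and in *Pdgfra-GFP*, where SCs were higher. Chondrocytes (280 ± 34.7) and mural cells (248 ± 55.9) came next. ECs held 174, 196 and 120 CPM and OBs 141, 150 and 140 CPM (143 ± 5.85). By CPM, ECs were above OBs in the metaphyseal libraries and below them in *Pdgfra-GFP*. CPM are without the TMM scaling used in the tests, whose factors were 0.769, 0.756 and 0.570 in OBs and 1.19, 1.19 and 1.12 in ECs. A lower factor raises a scaled level, so this order depends on the scaling. The CPM of ECs and of OBs were below the *Timp2* level in near-empty droplets, which was 212, 216 and 222 CPM. The single fibroblast value of 762 CPM was the highest, and macrophages of the *Pdgfra-GFP* library, in which *Timp1* was 15.8 CPM and *Timp3* 1.13 CPM, held 382 CPM of *Timp2*. The *Timp2* locus overlaps *Cep295nl* on the same strand, so reads in the shared stretch could belong to either gene.

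*Timp3* encodes the matrix-bound inhibitor, on chromosome 10 (86300372-86349506, plus strand) inside *Syn3* on the other strand. ECs held 469, 467 and 595 CPM (510 ± 73.1). Mural cells varied from library to library with 600, 305 and 131 CPM (346 ± 237), on 19, 19 and 84 cells. SCs held 228, 245 and 171 CPM (215 ± 38.7), and mpMSCs 241, 67.8 and 120 CPM (143 ± 88.9). dpMSCs were at 27.7, 24.9 and 32.8 CPM and OBs at 12.3, 13.1 and 8.32 CPM, and the OB libraries lay below every dpMSC library. In thinned cells a *Timp3* UMI was present in 54.1%, 53.8% and 64.6% of ECs and in 2.01%, 2.21% and 1.36% of OBs. In near-empty droplets *Timp3* was 188, 174 and 71.5 CPM, above the levels in dpMSCs and OBs. Subtraction of free RNA left 0.433 CPM of *Timp3* in OBs.

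*Timp4*, on chromosome 6 (115241892-115252205, minus strand, overlapping *Syn2* on the other strand), encodes a secreted inhibitor known for its restricted tissue distribution. dpMSCs held 73.1, 72.5 and 133 CPM (92.7 ± 34.5), from 314, 294 and 2198 UMIs, and no other population reached these values. Mural cells held 16.4, 42.6 and 31.2 CPM from 2, 6 and 15 UMIs. In near-empty droplets *Timp4* was 16.3, 20.6 and 33.3 CPM, below the dpMSC levels and near those of mural cells in metaphyseal replicate 1 and *Pdgfra-GFP*. In mpMSCs there were 0, 0 and 19 UMIs, in SCs 0, 0 and 9 UMIs and in OBs 1, 2 and 25 UMIs. In the metaphyseal SCs, on 10 and 17 cells, a floor of 3 counts corresponds to 28.5 and 16.7 CPM, so a low level cannot be told from none there. The EC value of 28.4 CPM in the *Pdgfra-GFP* library came from 46 UMIs, of which 1 cell held 36, and the metaphyseal ECs were at 0.287 and 0.176 CPM. In thinned cells a *Timp4* UMI was found in 12.9%, 13.3% and 20.5% of dpMSCs and in 0%, 0% and 0.323% of mpMSCs, and before thinning in 28.4%, 27.7% and 31.9% and in 0%, 0% and 1.47%.

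*Reck*, on chromosome 4 (43875530-43944806, plus strand), was low in every population. dpMSCs held 29.8, 27.6 and 20.6 CPM (26.0 ± 4.79), mpMSCs 19.7, 12.5 and 22.0 CPM (18.1 ± 4.95) and chondrocytes 14.3, 11.8 and 36.8 CPM (20.9 ± 13.7). SCs held 0, 16.7 and 24.3 CPM from 0, 3 and 46 UMIs. ECs held 10.0, 9.31 and 4.32 CPM and OBs 12.3, 13.1 and 7.49 CPM. From dpMSCs down to OBs the range over libraries of each population overlapped that of the next in order. Macrophages had 0 *Reck* UMIs, with an exact upper limit of 4.16 CPM. Near-empty droplets held 14.4, 16.9 and 19.7 CPM of *Reck*, above the levels in ECs and OBs and near those in SCs and mpMSCs. The part of free RNA in these low levels was tested only by subtraction.

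The make-up of the inhibitor transcripts therefore differed between populations. *Timp1* was 85.5% ± 1.99 of the UMIs of the 5 genes in OBs and 56.2% ± 3.51 in SCs (SD, n = 3). *Timp2* was 66.8% ± 8.45 in dpMSCs, where *Timp4* added 15.2%. *Timp3* was 69.9% ± 4.39 in ECs and 0.983% ± 0.261 in OBs. In mpMSCs *Timp1* and *Timp2* were close, at 42.5% ± 5.29 and 42.4% ± 9.26.

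**Figure D2:**
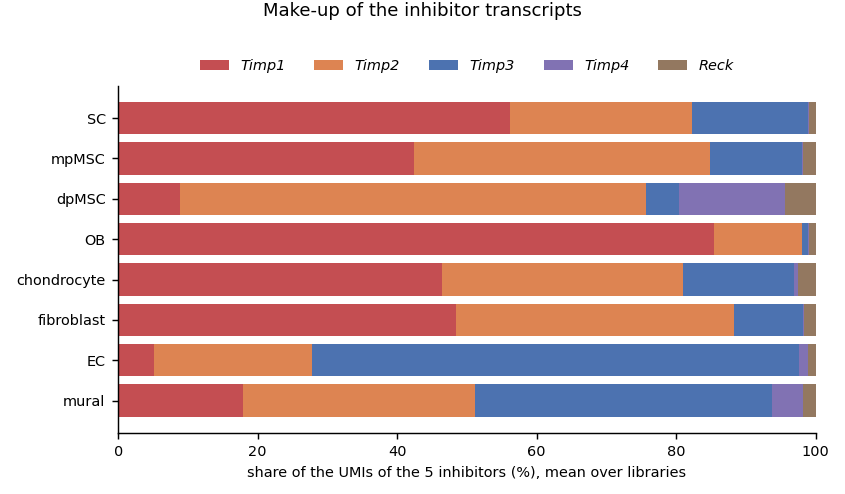
Share of each gene (horizontal axis, percent) in the summed UMIs of the 5 inhibitors in 8 populations, as the mean over libraries (fibroblasts: 1 library). OBs are almost all *Timp1* (85.5%), ECs mostly *Timp3* (69.9%) and dpMSCs mostly *Timp2* (66.8%).

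Whether SCs, the cells with most protease transcripts, also differ in their inhibitors from the stromal cells closest to them was read from SCs against mpMSCs. No inhibitor passed the test. Of all 13045 genes tested 3.63% passed, so a count of 0 among 5 genes is near the background. The log2 fold change (SCs minus mpMSCs, edgeR) was 0.50 for *Timp1* (95% interval -0.51 to 1.52, adjusted p = 0.778), -0.35 for *Timp2* (-0.87 to 0.17, adjusted p = 0.652), 0.45 for *Timp3* (-0.56 to 1.46, adjusted p = 0.805) and 0.04 for *Reck* (-0.82 to 0.90). For *Timp4* it was 0.997 on few UMIs, with an interval from -1.56 to 3.56. At an unadjusted p under 0.05 the count of inhibitors was also 0. These intervals leave room for differences of more than 2-fold in *Timp1* and *Timp3*, and within libraries *Timp1* was 2.90 and 2.17 times higher in SCs in metaphyseal replicate 2 and *Pdgfra-GFP* and 0.871 times the mpMSC level in metaphyseal replicate 1.

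Of the 3 proteases in the same cells, *Mmp9* and *Mmp14* passed. The authors had described the SC cluster of these data by *Fabp5* and *Mmp9* and reported all 3 proteases as high in it. *Fabp5* is also a marker of the gate, so these calls are not independent results. Alternative settings are not given for the 3 proteases. *Mmp9* was 4287, 5896 and 11200 CPM in SCs and 117, 150 and 116 CPM in mpMSCs, a log2 fold change of 5.57 (SE 0.69, adjusted p = 9.1e-06). *Mmp14* was 1679, 1526 and 1922 CPM in SCs and 661, 539 and 552 CPM in mpMSCs, a log2 fold change of 1.40 (SE 0.40, adjusted p = 0.0496). *Mmp13* was 8431, 13274 and 9911 CPM against 4635, 4239 and 2380 CPM, higher in all 3 libraries, with a log2 fold change of 1.251 that did not pass in edgeR (SE 0.75, adjusted p = 0.515).

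Set against each other, the UMIs of the 5 inhibitors amounted to 0.0771, 0.0659 and 0.0637 of those of the 3 proteases in SCs. In mpMSCs the ratio was 0.259, 0.151 and 0.299, and in dpMSCs 0.279, 0.287 and 0.346. In ECs it was 2.31, 2.27 and 2.35, and in OBs 3.66, 2.88 and 2.99. The SC libraries lay below every library of these populations. *Mmp13* in near-empty droplets was 995, 1038 and 1049 CPM, above OBs (171 to 208 CPM) and ECs (17.4 to 96.3 CPM). *Mmp14* was at 278, 268 and 213 CPM there, above OBs (155 to 172 CPM) and near ECs (230 to 277 CPM). The part of free RNA in the OB and EC ratios, and so in differences from them, was not tested. Subtraction was run for SCs against mpMSCs alone, with a mean log2 difference in ratio of -1.73. The authors had already reported the proteases of this ratio as highly expressed in SCs of the same libraries. The low place of SCs is therefore tied to that choice of proteases and is not an independent result. Of 24 further proteases tested in SCs against mpMSCs, 3 were called higher, 1 was called lower and 20 did not pass. Those called higher include *Adam19* and *Mmp11*, which the authors had also reported as highly expressed in SCs. The further proteases were left out of the ratio, and a ratio to a wider set was not tested. The log2 ratio of SCs minus that of mpMSCs was -1.75, -1.196 and -2.23 (mean -1.72 ± 0.52), which is 3.303 times lower, and it was 46.0 times lower than in OBs. With 3 libraries an exact sign-flip permutation test cannot go below p = 0.25, and none was made. The summed inhibitor level was 1313 ± 184 CPM in SCs, 1018 ± 341 CPM in mpMSCs and 1153 ± 103 CPM in OBs, and in metaphyseal replicate 1 it was lower in SCs (1110 CPM) than in mpMSCs (1400 CPM) and OBs (1258 CPM), while the summed protease level was 19375 ± 4467, 4463 ± 1249 and 364 ± 19.7 CPM. These summed levels are CPM without the TMM scaling used in the tests. The TMM factors were 0.769, 0.756 and 0.570 in OBs and 1.35, 1.29 and 1.10 in SCs. A lower factor raises a scaled level, so the order of SCs and OBs in summed inhibitors depends on the scaling. A ratio within a population does not depend on how libraries are scaled. It counts transcripts, and the protein amounts were not measured.

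**Figure D3:**
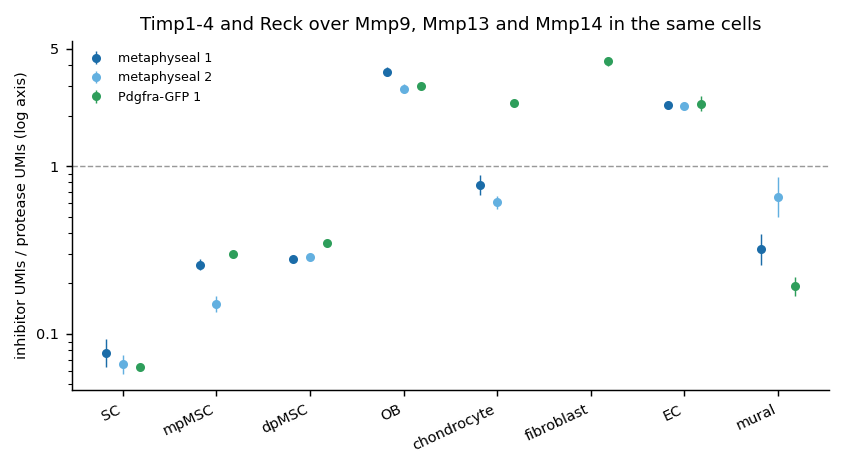
Summed UMIs of the 5 inhibitors divided by those of *Mmp9*, *Mmp13* and *Mmp14* (logarithmic vertical axis) in 8 populations, with 1 point per library, exact 95% intervals and a dashed line at equal counts. SC points (0.0637 to 0.0771) lie below those of mpMSCs and dpMSCs, whereas OBs, ECs and fibroblasts lie above the dashed line.

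In mural cells the same ratio was 0.320, 0.655 and 0.193, and there it rested on few cells. In metaphyseal replicate 1, 199 of the 200 *Mmp9* UMIs were in 1 mural cell and all 97 *Mmp13* UMIs in 1 mural cell, and in the *Pdgfra-GFP* library 20 of 84 mural cells had any *Mmp9* UMI. SC markers summed to 1990, 1350 and 1802 CPM in mural cells, and their part in this ratio was not tested. Chondrocytes differed between the kinds of library, with ratios of 0.775 and 0.607 in the metaphyseal libraries and 2.36 in the *Pdgfra-GFP* library. There *Mmp13* was 284 CPM in place of 701 and 1521 CPM. The gate held a different mix of cells, since hypertrophic chondrocytes were 24 of 41, 22 of 38 and 229 of 1727 cells. These hypertrophic cells held 1414, 2433 and 1152 CPM of *Mmp13*. The part of this mix in the ratio was not tested.

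Protease and inhibitor transcripts were found in the same SCs. Of thinned SCs with at least 1 protease UMI, 70.0%, 76.5% and 81.1% also had an inhibitor UMI (10, 17 and 227 cells). Since 100%, 100% and 97.8% of SCs had a protease UMI, this is close to the share of all SCs with an inhibitor UMI (70.0%, 76.5% and 81.5%). The share was 74.1%, 82.2% and 73.9% in mpMSCs and 67.2%, 65.0% and 68.9% in dpMSCs. Neutrophils with a protease UMI had an inhibitor UMI in 50.0%, 31.6% and 51.7%. Among SCs of the *Pdgfra-GFP* library, a *Timp1* UMI was present in 62.2% of 193 cells with an *Mmp9* UMI (54.9 to 69.0) and in 64.1% of 39 cells without one (47.2 to 78.8), and these intervals overlap. For *Timp2* the shares were 47.2% (39.9 to 54.4) and 61.5% (44.6 to 76.6).

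Against OBs, SCs were higher in *Timp3* and did not pass the test for the other inhibitors, which is 1 called of 5 beside 27.6% of all genes tested. *Timp3* had a log2 fold change of 3.41 (SE 0.55, adjusted p = 2.3e-05) and was 18.5, 18.7 and 20.5 times higher by CPM in the 3 libraries. *Timp1* had a log2 fold change of -1.29 (SE 0.51, adjusted p = 0.0608), and *Timp2* one of 0.46 (SE 0.26, adjusted p = 0.217). *Timp1* passed in 5 of 16 alternatives, among them that without the *Pdgfra-GFP* library (-1.26, adjusted p = 0.00752), and its value ranged from -1.68 to -0.48, the last with UMI totals as the scale (adjusted p = 0.499). OB libraries put 26.4% to 36.9% of their UMIs into the 10 most abundant genes, led by *Col1a1*, against 9.40% to 13.7% in SCs, and TMM scaling corrects for this. With UMI totals as the scale the median of all genes moved by 0.81 on the log2 scale and *Timp2* and *Reck* passed (log2 fold changes 1.28 and 1.08, adjusted p = 6.9e-04 and 0.0457), beside a median of 0.80 over all genes.

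Against ECs, 4 of the 5 inhibitors passed, beside 28.5% of all genes. SCs were higher in *Timp1* (log2 fold change 4.24, SE 0.57, adjusted p = 1.1e-06), in *Timp2* (1.01, SE 0.27, adjusted p = 0.00457) and in *Reck* (1.252, SE 0.46, adjusted p = 0.0420), and lower in *Timp3* (-1.39, SE 0.49, adjusted p = 0.0342). The *Timp1* and *Timp2* calls held under all alternatives tried. *Timp3* passed in 7 of 16 alternatives and *Reck* in 7 of 15, and without the library as a block their adjusted p was 0.131 and 0.0609. Without the *Pdgfra-GFP* library the *Reck* value was 0.05 (adjusted p = 0.992), and without metaphyseal replicate 2 neither *Reck* nor *Timp3* passed (adjusted p = 0.112 and 0.0952).

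Against chondrocytes none of the 5 inhibitors passed, beside 25.8% of all genes, and at an unadjusted p under 0.05 the count was 0 as well. The log2 fold changes ranged from -1.08 for *Timp4* (interval -3.17 to 1.003) to 0.45 for *Timp1* (-0.55 to 1.45). The share of hypertrophic cells among chondrocytes differed between the kinds of library, as given above, and its part here was not tested.

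dpMSCs and mpMSCs, the stromal populations named after diaphysis and metaphysis, differed in which inhibitors they expressed. The gates do not show where a cell lay, and dpMSCs made up 30.9% and 34.0% of the cells in metaphyseal replicates 1 and 2. Of the 5 members 3 passed, beside 24.7% of all genes. *Timp1* was lower in dpMSCs (log2 fold change -3.27, SE 0.54, adjusted p = 3.8e-05), as was *Timp3* (-2.33, SE 0.49, adjusted p = 5.6e-04), and both were lower in 3 of 3 libraries. *Timp4* was higher (adjusted p = 9.3e-08). Its fitted value of 6.51 depends on the prior count, since 2 mpMSC libraries are at 0 UMIs. Against a floor of 3 counts per library it was at least 16.1-fold and 13.5-fold higher in the metaphyseal replicates, and in the *Pdgfra-GFP* library it was 57.2 times higher. *Timp2* (-0.09, interval -0.58 to 0.41) and *Reck* (0.30, -0.33 to 0.93) did not pass.

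OBs against mpMSCs gave 3 calls of 5, beside 32.3% of all genes. *Timp1* was higher in OBs (log2 fold change 1.80, SE 0.51, adjusted p = 0.00724), and *Timp2* (-0.81, SE 0.25, adjusted p = 0.0149) and *Timp3* (-2.96, SE 0.51, adjusted p = 5.5e-05) were lower. The *Timp3* call held in all alternatives, while *Timp1* passed in 12 of 16 and *Timp2* in 11 of 16, and without the library block their adjusted p was 0.108 and 0.105. Without metaphyseal replicate 2 the adjusted p was 0.0559 for *Timp1* and 0.160 for *Timp2*, and without metaphyseal replicate 1 it was 0.205 for *Timp2*. With UMI totals as the scale, which moved the median of all genes by -0.73, *Timp1* had a log2 fold change of 1.11 (adjusted p = 0.0784).

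Mural cells did not pass against ECs for any inhibitor, beside 23.1% of all genes, and 2 inhibitors had an unadjusted p under 0.05. *Timp1* had a log2 fold change of 1.48 (SE 0.60, adjusted p = 0.0764) and *Timp4* one of 2.09 (SE 0.90, adjusted p = 0.1001). Without the *Pdgfra-GFP* library, whose EC value came mostly from 1 cell, *Timp4* had a log2 fold change of 6.46 (adjusted p = 1.6e-05). That value also rests on few UMIs, at 16.4 and 42.6 CPM in metaphyseal mural cells and 0.287 and 0.176 CPM in ECs. Near-empty droplets of these libraries held 16.3 and 20.6 CPM. Of 16 alternatives *Timp1* passed in 3 (lowest adjusted p = 0.00637), *Timp4* in 3 and *Timp3* in 2 (lowest adjusted p = 0.0311).

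**Figure D4:**
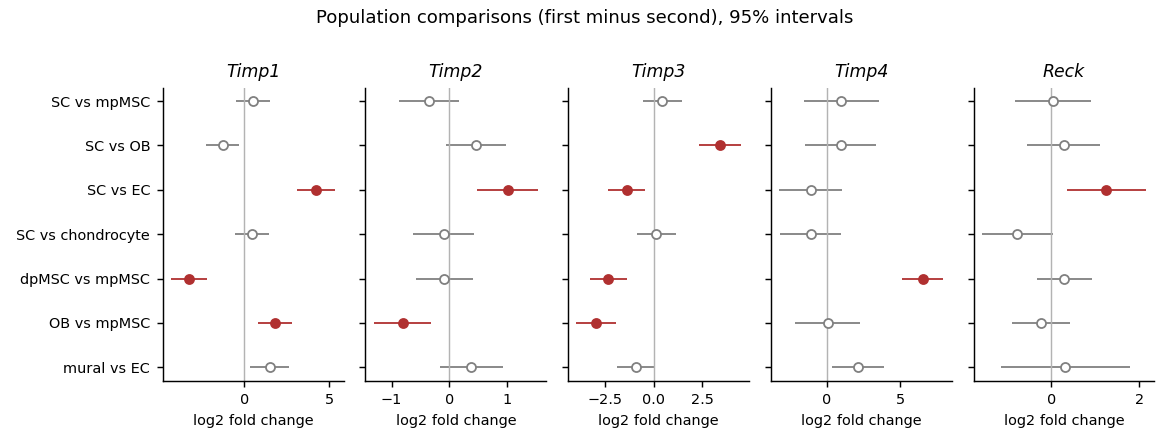
Log2 fold change of each inhibitor in 7 population comparisons (first population minus second), with 95% intervals from the SE. Filled red points passed an adjusted p of 0.05 in edgeR and open grey points did not. The SC and mpMSC comparison in the top line crosses 0 for all 5 genes, and *Timp4* stands at 6.51 for dpMSCs against mpMSCs.

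Within ECs, inhibitor levels were compared between vessel types. *Timp3* was highest in arterial ECs (590, 692 and 822 CPM), lower in sinusoidal ECs (521, 532 and 677 CPM) and lowest in metaphyseal ECs (399, 359 and 326 CPM), in the same order in 3 of 3 libraries. The counting intervals of arterial and sinusoidal ECs overlapped in metaphyseal replicate 1 and *Pdgfra-GFP*, while those of metaphyseal ECs lay below both in every library. *Reck* was 14.1 ± 2.37 CPM in sinusoidal ECs, from 44, 29 and 7 UMIs, against 4.55 ± 4.13 in arterial and 4.68 ± 4.06 in metaphyseal ECs. The sinusoidal values were near or below those of *Reck* in near-empty droplets (14.4, 16.9 and 19.7 CPM). *Timp1* was 46.1 ± 14.1 CPM in metaphyseal ECs and 26.9 ± 3.15 in sinusoidal ECs, both below the level in near-empty droplets (248, 229 and 555 CPM). In chondrocytes, hypertrophic cells held more *Timp1* than chondrocytes outside any named group in every library, at 617 ± 162 against 276 ± 232 CPM, of which the latter rests on 12 and 13 cells in the metaphyseal libraries. Hypertrophic cells also held more *Timp3* (193 ± 89.2 against 82.5 ± 61.8 CPM) and more *Mmp13* (1666 ± 677 against 152 ± 163 CPM). Among the chondrocyte groups of the *Pdgfra-GFP* library, cells with *Efemp1*, *Sfrp5* and *Chil1* held the most *Timp4* (17.4 CPM) and *Reck* (55.6 CPM) and the least *Timp1* (160 CPM). Near-empty droplets of this library held 33.3 CPM of *Timp4*, above that value, and 19.7 CPM of *Reck*. dpMSCs with interferon-induced genes were near other dpMSCs in *Timp4* (88.8 ± 38.1 and 93.8 ± 33.9 CPM), and the counting intervals overlapped in every library. Late OBs held 1188, 822 and 1163 CPM of *Timp1* (1058 ± 205) and other OBs 1070, 885 and 961 CPM (972 ± 92.9). In metaphyseal replicate 1 and *Pdgfra-GFP* late OBs were higher with counting intervals apart, and in metaphyseal replicate 2 the intervals overlapped. No test was made within populations.

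**Figure D5:**
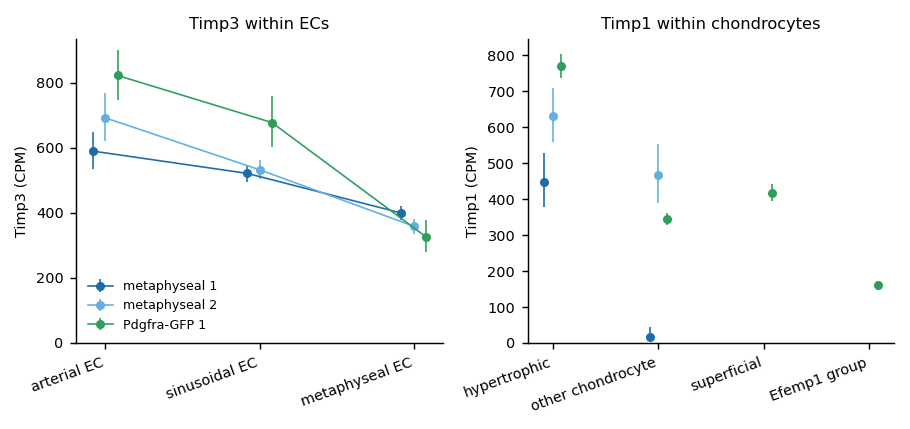
Left, *Timp3* (CPM) in 3 kinds of EC, with lines joining the values of a library. Right, *Timp1* (CPM) in chondrocyte groups, of which the superficial and *Efemp1* groups have at least 10 cells in the *Pdgfra-GFP* library alone. Bars are exact 95% Poisson intervals, and *Timp3* falls from arterial to metaphyseal ECs in each library.

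The genes on a list of 27 further MMP, ADAM and ADAMTS enzymes, of which 24 were tested, moved in both directions. The list was set by gene family, and whether these inhibitors act on each enzyme was not tested. In SCs against mpMSCs 3 rose, 1 fell and 20 did not pass, beside 3.63% of all genes called. *Adam19* (log2 fold change 2.19) and *Mmp11* (1.80) rose and *Mmp23* fell by 1.71. The authors had already reported *Adam19* and *Mmp11* as highly expressed in SCs of these data, so those calls are not independent results. The third gene called higher, *Mmp10*, had 0, 0 and 24 UMIs in SCs and 0, 0 and 1 UMIs in mpMSCs, so its call rests on the *Pdgfra-GFP* library and its fitted fold depends on the prior count. The median over the list was -0.02, and over all genes -0.06. Against chondrocytes 13 rose and 1 fell, beside 25.8% of all genes called, with a median of 1.15 beside -0.02 for all genes. Against OBs 8 rose and 3 fell, beside 27.6%. In dpMSCs against mpMSCs 5 rose and 5 fell, beside 24.7%, among them *Mmp2*, a gelatinase, which fell by 3.13 on the log2 scale (46.3 against 374 CPM). Of 17 other inhibitors and binding partners (the gate marker *Kdr* left out), 13 were tested. In SCs against mpMSCs *Cst3*, a cystatin that inhibits cysteine cathepsins, fell by 1.52 (1080 against 2908 CPM), and none rose. *A2m*, a general protease trap, was also called lower, with 0, 0 and 5 UMIs in SCs (mean 0.882 CPM) against 61, 47 and 644 UMIs in mpMSCs (85.0 CPM). Its fitted fold depends on the prior count.

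Across the 31 population sums, the genes most like each inhibitor in log2(CPM + 10) were ranked by Pearson's r among 6160 or 6161 genes. These sums share libraries and depths, and r is given as a description. *Timp1* was closest to *Mmp2* (r = 0.942), then *Fgfr1* (0.905) and *Dap* (0.904). *Mmp2* was 491 ± 47.1 CPM in OBs, 374 ± 97.4 in mpMSCs and 46.3 ± 21.2 in dpMSCs. *Timp2* was closest to *Lamp1* (0.860), *Fuom* (0.850) and *Htra1* (0.829), and *Timp3* to *Tm4sf1* (0.847), *Gng11* (0.847) and *Pdlim7* (0.835). *Timp4* was closest to *Il34* (0.886), *Gm4951* (0.877) and *Cxcl9* (0.860), and *Il34* was 347 ± 58.3 CPM in dpMSCs against 1.63 ± 2.82 in mpMSCs. *Reck* was closest to *Pam* (0.752), *B230118H07Rik* (0.735) and *Osbpl1a* (0.726).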

How the data were processed

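The authors trimmed reads with fastp 0.20, aligned them with STARsolo (STAR 2.7.3a) to mm10, where genes came from Gencode M23 plus H2B-GFP, and deposited UMI counts, not normalized, for all whitelisted barcodes. The labels name the kit as Chromium V2/V3 without saying which library used which, and the methods of the authors name the V3 kit. The deposited counts total 25243314, 22082735 and 91747759 UMIs. Gene positions are from Gencode M21 and start regions from RefSeq, both of GRCm38. 

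Cells were kept with at least 1500 (metaphyseal) or 1000 (*Pdgfra-GFP*) genes if mitochondrial UMIs did not exceed 15% and ribosomal UMIs 30%, and genes were kept if seen in more than 10 cells, leaving 19933 genes. EmptyDrops was not used here. A cell's score for a population is the mean of its markers, each as ln(1 + counts per 10000) divided by the 99.5th percentile (at least 0.5) and capped at 1. The highest score assigned the cell if it was at least 0.2 and 1.25 times the next, without that margin between SCs and mpMSCs. Doublets called by Scrublet (26, 17 and 163 cells) were kept and removed in an alternative. The members, marker lists and gene lists were chosen with earlier results of these data known, and the gate thresholds after seeing cell numbers and markers.

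UMIs were summed per library and population of at least 10 cells (31 sums), and tested with edgeR 4.0.16 (quasi-likelihood, TMM, filterByExpr) over 13045 genes with all populations in one model and Benjamini-Hochberg adjustment at 0.05. The library was a block, since populations of a library come from one suspension, and SC and mpMSC deviations of a library correlated at 0.101, 0.220 and 0.670 over 6257 genes. The code was tested on simulated data. Intervals are exact at 95%, Poisson for levels and binomial for shares. The alternatives were DESeq2 1.42.0, its size factors in edgeR, no filter on low counts, no block, Leiden clusters, a stricter gate, other cell filters, thinning, subtraction of free RNA, a minimum of 20 cells, each library left out and, chosen after seeing the data, UMI totals in place of TMM. Named genes are the members, the 3 proteases, the listed genes past the threshold with the largest changes, and the 3 genes most like each member with a mean of at least 20 CPM that mark no population.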

Additional observations from a re-analysis of the deposited data

Results flagged for a closer look

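In 3 comparisons the *Pdgfra-GFP* library went the other way from both metaphyseal libraries, and the difference between the kinds of library was not tested. *Timp2* was higher in SCs than in mpMSCs in the *Pdgfra-GFP* library (log2 ratio of CPM 0.15) and lower in the metaphyseal replicates (-0.65 and -0.34). *Timp3* was lower in SCs than in chondrocytes in the *Pdgfra-GFP* library (-0.18) and higher in the metaphyseal replicates (1.49 and 0.96). *Reck* was lower in dpMSCs than in mpMSCs in the *Pdgfra-GFP* library (-0.09) and higher in the metaphyseal replicates (0.60 and 1.15). The counting intervals of the *Pdgfra-GFP* values overlapped between the compared populations in all 3 cases. For *Timp2* and *Reck* they also overlapped in both metaphyseal replicates, whereas for *Timp3* they were apart in both. Sorting, reporter genotype, dissected region and library cannot be told apart here. The mix of chondrocyte groups also differed between the kinds of library, and its part in the *Timp3* case was not tested.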

How the results depend on the processing

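The calls of *Timp1* and *Timp2* for SCs against ECs, of *Timp3* for SCs against OBs and OBs against mpMSCs, and of *Timp1*, *Timp3* and *Timp4* for dpMSCs against mpMSCs held in every alternative run for them, and no called value changed sign. Among the fold changes of the inhibitors under alternatives, 510 kept their side of the threshold, 26 lost and 17 gained a call. Without the library block (no pairing of populations by library) the number of genes called was 123 for SCs against mpMSCs, 2146 for SCs against OBs, 2140 for SCs against chondrocytes, 1777 for dpMSCs against mpMSCs and 2280 for OBs against mpMSCs, in place of 473, 3603, 3370, 3220 and 4208. After thinning to 2000 UMIs it was 1753 for SCs against OBs, 1925 for SCs against ECs, 1690 for SCs against chondrocytes, 1752 for dpMSCs against mpMSCs, 2068 for OBs against mpMSCs and 1576 for mural cells against ECs. SCs against mpMSCs gave 295 with free RNA subtracted and 74 with Leiden clusters, which found SCs in the *Pdgfra-GFP* library alone (306 cells, 179 shared with the gate) and gave a log2 ratio difference of -2.28. A minimum of 20 cells gave 1839 for mural cells against ECs. UMI totals in place of TMM, chosen after seeing the data, gave 6091 for SCs against OBs and 7608 for OBs against mpMSCs, and the share of higher calls went from 48.7% to 89.9% and from 46.4% to 8.91%, and from 50.5% to 74.9% for SCs against chondrocytes. DESeq2 size factors moved that share from 43.0% to 53.7% for mural cells against ECs. With each library left out in turn the counts were 146 to 289 for SCs against mpMSCs, 1832 to 2716 for SCs against OBs, 2222 to 2825 for SCs against ECs, 1594 to 2582 for SCs against chondrocytes, 2029 to 2970 for dpMSCs against mpMSCs and 1979 to 2042 for mural cells against ECs, and the cause of these changes was not tested. The 10 and 17 SCs of the metaphyseal replicates limit the low genes *Timp4* and *Reck*.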
